A study of Mus musculus with 38 samples.

Results

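Zscan4c, Zscan4d, Zscan4f, Gm20767, Gm20765, Gm21304, Gm21312, Gm4340, AA792892 and B020004J07Rik are 10 mouse genes that were listed by name as genes of the 2-cell-like programme, and all 10 were found among the 23475 genes of the bulk table and in every single-cell table. The members were chosen by name with earlier results of these data in view, their levels over time and their joint presence in single cells among them, so those values are given as descriptions and support nothing further. E14 mouse embryonic stem cells (mESCs), a single established line, were kept in 2i medium with LIF (0 h) and then exposed to 0.25 µM all-trans retinoic acid (RA) in N2B27 medium without inhibitors or LIF. Bulk RNA was counted as unique molecular identifiers (UMIs) in 25 libraries: 2 of mESCs, 1 each of the whole culture at 6, 12, 24, 36, 48, 60, 72, 84 and 96 h, and 14 of sorted or cultured cells. The sorted libraries were 4 CD24 quartiles (Q1 to Q4) of PDGFRA- cells at 48 h, 3 CD24 terciles (T1 to T3) of PDGFRA- cells and PDGFRA+/CD24- cells at 72 h, and ectoderm-like (PDGFRA-/CD24+) and XEN-like (PDGFRA+/CD24-) cells at 96 h with 2 biological replicates each. The cultured libraries were ectoderm-like cells after 5 passages and XEN-like cells after 3 weeks, both in N2B27 with EGF and FGF2. Single cells were profiled by SCRB-seq, which counts UMIs in the wells of 384-well plates, at 0, 6, 12, 24, 36, 48, 60, 72 and 96 h, and by SMART-seq2, which reads full-length cDNA, at 0, 12, 24 and 48 h, with 1 plate or set of cells per time.

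In the mouse embryo the zygotic genome is switched on at the 2-cell stage, and a small, changing fraction of mESCs re-enters a similar transcriptional state for a while. The Zscan4 genes encode proteins with a SCAN domain and zinc fingers that are known for their role in telomere lengthening and genome stability in mESCs, and they are standard markers of this state. Dux, a double homeobox factor, activates the programme and its MERVL-driven genes, and Dppa2 and Dppa4 act upstream of Dux.

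The members fall into 3 kinds by position in GRCm38.p6. Zscan4c (chr7:11005745-11010547), Zscan4d (chr7:11161643-11166148) and Zscan4f (chr7:11397915-11402318) lie in the Zscan4 cluster. Gm21304 (chr10:104168515-104170954), Gm21312 (chr10:104177024-104179491), Gm20765 (chr10:104185533-104188000) and Gm4340 (chr10:104194042-104196522) follow each other in an array on chromosome 10. Gm20767 (chr13:120140246-120155335), AA792892 (chr5:94377340-94384334) and B020004J07Rik (chr4:101834969-101844022), which RefSeq now names Pramel17, a PRAME-like gene, stand apart. The 4 array genes are in effect 1 transcript to a counting method: every 46-base window of the Gm20765, Gm21304 and Gm21312 transcripts, and 99.2% of those of Gm4340, recurred in another gene, and each was shared at over 90% with the same 6 other genes of the array, Gm8764, Gm21293 and Gm6763 among them. How reads were assigned to copies could not be checked, and the array is given below as a sum wherever possible. Whether a molecule was counted in more than 1 array gene was not tested. Sums and shares that include the array may therefore count a molecule more than once, and their counting intervals may be too narrow. Of the windows of Zscan4c, Zscan4d and Zscan4f, 86.8%, 52% and 95.8% recurred in another gene, against 72.0% for Gm20767, 49% for AA792892 and 14.2% for B020004J07Rik.

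Promoters are shown for the 2 families with several members, to let the sequence shared within each be seen; 7 of the 10 members had an entry in the RefSeq promoter table (GRCm38.p6). Each line gives the 120 bases before the annotated start, 5′ to 3′ on the gene's own strand, with the letters TATAA and CCAAT in capitals. The stretches are chr7:11005625-11005744 on the plus strand for Zscan4c, chr7:11166149-11166268 on the minus strand for Zscan4d, chr7:11397795-11397914 on the plus strand for Zscan4f and chr10:104185413-104185532 on the plus strand for Gm20765.
Zscan4c: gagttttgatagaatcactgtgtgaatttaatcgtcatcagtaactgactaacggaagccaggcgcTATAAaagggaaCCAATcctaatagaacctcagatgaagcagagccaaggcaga
Zscan4d: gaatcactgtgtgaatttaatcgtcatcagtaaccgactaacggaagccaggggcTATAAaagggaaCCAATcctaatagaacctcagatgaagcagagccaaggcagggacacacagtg
Zscan4f: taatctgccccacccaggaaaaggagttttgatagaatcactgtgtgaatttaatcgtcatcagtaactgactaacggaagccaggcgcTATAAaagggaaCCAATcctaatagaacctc
Gm20765: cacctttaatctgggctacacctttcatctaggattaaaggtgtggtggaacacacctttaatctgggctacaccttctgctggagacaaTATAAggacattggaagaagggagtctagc

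The stretches of Gm21304, Gm21312 and Gm4340 were identical to that of Gm20765. Over the whole 250 bases before the start, Zscan4c matched Zscan4f at 99.6% of aligned bases and Zscan4d at 96.7%, the array genes matched each other at 99.6% or more, and Zscan4c matched Gm20765 at 56.1%. TATAA, searched on both strands, occurs in the 250 bases before the start of 22.8% of 32851 mouse promoters and CCAAT in 33.8%, so neither run of letters is particular to these genes.

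The members were near the detection limit in mESCs, were highest in the whole culture at 48 h and 60 h, and were low again at 96 h. Totals ran from 1063809 to 2459424 UMIs per bulk library, and levels are UMIs per 1000000 UMIs of the library (CPM). The 10 members together had 14 and 15.7 CPM in mESCs, 17.1 CPM after 6 h of RA, 18.1 CPM after 12 h and 25.9 CPM after 24 h. The sum was 124 CPM by 36 h, peaked with 433 CPM at 48 h and 397 CPM at 60 h, and declined through 244 CPM (72 h) and 110 CPM (84 h) to 50.7 CPM (96 h). All counting intervals here are 95% intervals and cover counting error only; with 1 library per time there is no test between times. The 48 h and 60 h intervals (407 to 460 and 367 to 428 CPM) overlapped, those of mESC, 6 h and 12 h overlapped as well, and the steps from 24 h to 36 h (4.79-fold, 3.52 to 6.62) and from 36 h to 48 h (3.49-fold, 3.00 to 4.07) exceeded counting error. In bulk RNA, more cells with the transcripts and more transcripts per cell cannot be told apart.

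At 48 h the members summed to 30.9 times the level of the first mESC library (interval 21.8 to 45.5). The Zscan4 genes stood at 314 UMIs against 8, a ratio of 36.5, and the array at a ratio of 83.8, whereas AA792892 and the PRAME-like B020004J07Rik differed by 11.4-fold and 11.2-fold. Among the 4732 genes that reached 50 UMIs in whichever of both libraries had more, 14.1% were at least 2-fold higher at 48 h, and 9 of the 9 members that reached that minimum were, with a median of 32.5-fold against 1.12-fold over all genes. This contrast is close to the one the members were listed for, so nothing is read from that count. Zscan4c, Gm20767 and Gm20765 had their highest time-course value at 60 h and the other 7 members at 48 h.

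Between 48 h and 96 h both the Zscan4 genes and the array fell, and the difference between these families was not tested. At 96 h the summed level was 0.117 of that at 48 h (0.0944 to 0.144), with the Zscan4 genes at 0.072 and the array at 0.131. Against the first mESC library the 96 h culture was still 3.62-fold higher (2.41 to 5.58). The array accounted for most of that gap, at 47 UMIs against 5 (11-fold), the Zscan4 genes had 18 against 8, and AA792892 had 4 UMIs in each library. The 2 mESC libraries differed by 1.12-fold (0.676 to 1.86), within counting error.

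**Figure D1:**
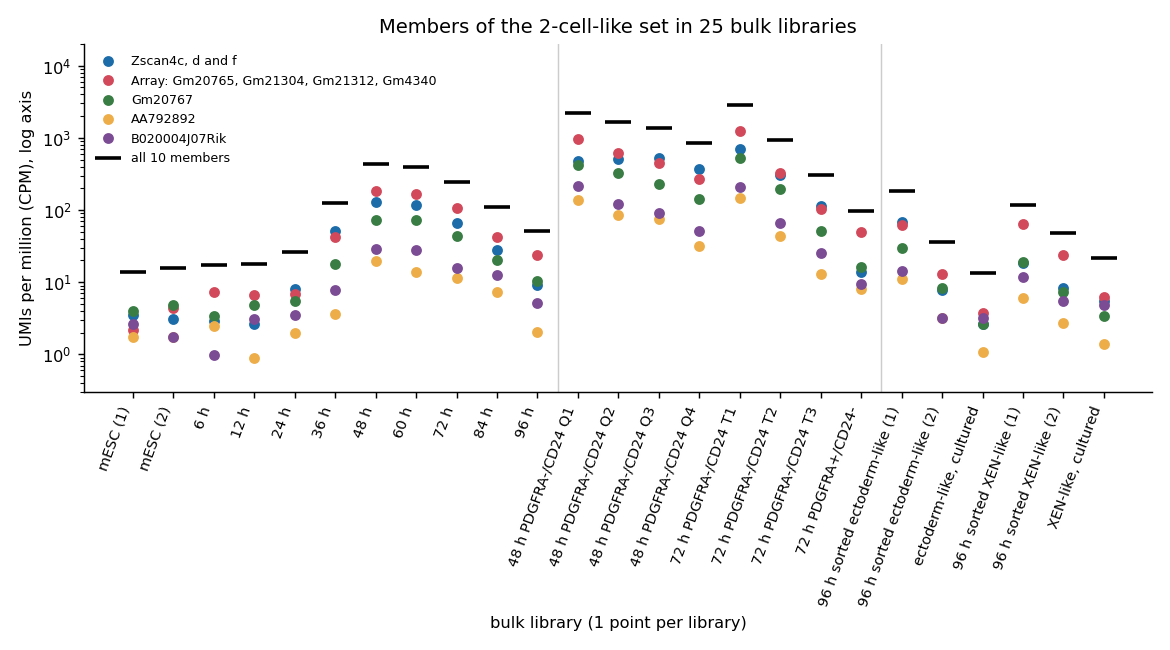
Summed CPM of the members by family in the 25 bulk libraries on a log axis, 1 point per family and library; points at like values overlap. The black bars, which sum all 10 members, stand near 14 CPM in mESCs, at 433 CPM at 48 h, at 2843 CPM in the T1 tercile at 72 h and at 13.4 CPM in cultured ectoderm-like cells.

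Among the sorted libraries of 48 h and 72 h the highest levels were found in PDGFRA- cells with little CD24. Summed CPM at 48 h was 2212 in Q1, 1670 in Q2, 1370 in Q3 and 863 in Q4. At 72 h it was 2843 in T1, 945 in T2, 308 in T3 and 97.8 in PDGFRA+/CD24- cells. Among the PDGFRA- fractions the level thus fell from the first to the last at both times. Cd24a, which encodes the sorted surface protein, was lower in Q1 than in Q4 (ratio 0.153) and lower in T1 than in T3 (0.195), so Q1 and T1 are the CD24-low ends. Each fraction is 1 library, and their intervals did not overlap within either time.

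In these single libraries the families had unlike ratios between the CD24 fractions, and the difference between families was not tested. Between Q1 and Q4 the Zscan4 genes differed by 1.29-fold (1.16 to 1.44), and Zscan4d, with 90.3 CPM in Q1, 124 in Q2, 131 in Q3 and 83.3 in Q4, was within counting error (1.08-fold, 0.846 to 1.39). The array differed by 3.55-fold (3.19 to 3.97), Gm20767 by 3.02-fold, B020004J07Rik by 4.17-fold and AA792892 by 4.38-fold. The intervals of the Zscan4 genes and of the other families did not overlap. They hold no spread between sorts, and those of the array may be too narrow. At 72 h the drop from T1 to T3 was larger for every family, at 6.21-fold for the Zscan4 genes (5.22 to 7.43), 12.0-fold for the array (10.1 to 14.4) and 10.4-fold for Gm20767.

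Against all genes, 3% of 3096 were at least 2-fold higher in Q1 than in Q4, and 7 of the 10 members were; the 3 Zscan4 genes were not. For T1 over T3 the figures were 7.95% of 3056 genes and 10 of 10 members, with medians of 9.77-fold for the members and 0.931-fold for all genes. As above, a gene was compared if whichever library had more UMIs reached the minimum. A gene with few UMIs in Q4 or T3 could thus enter only by being high in Q1 or T1. The array genes, in effect a single transcript, were also counted separately. Both member counts and the member median are therefore descriptions only. The pluripotency gene Zfp42 (Rex1) was also higher in Q1 than in Q4 (2.60-fold) and in T1 than in T3 (5.57-fold), and Nanog was 1.5-fold and 2.42-fold higher. PDGFRA+/CD24- cells at 72 h had the lowest level of that day, with 19 Zscan4 UMIs against 914 in T1 and 149 in T3, and 68 array UMIs against 1612 and 136.

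All 4 quartiles at 48 h lay above the whole culture of the same hour, Q4 by 1.99-fold (1.84 to 2.16), and all 3 terciles lay above the whole culture at 72 h. PDGFRA+/CD24- cells at 72 h lay below it, at 97.8 against 244 CPM. What set the sorted and whole-culture libraries apart was not tested, and levels are compared within the sorted series and within the time course only. A group of 12 abundant transcripts singled out after their values were seen (Ogdh, Ppp1r16b, Sec23ip, Gmeb1, Bcas2, Dennd5b, Ttf1, Slfn5, Irak1, Nip7, Luc7l2 and Casc4) moved in a similar way, at 43025 CPM in Q1, 29554 in Q4 and 17099 in the whole culture at 48 h, and their part in the members' levels was not tested.

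At 96 h the sorted cells allowed a test against mESCs, by edgeR's quasi-likelihood test over 8945 genes in 6 libraries with Benjamini-Hochberg adjustment. The members were chosen with their levels over time in view, and with few UMIs in mESCs they could pass the count filter through the sorted cells. Their calls against mESCs are therefore descriptions and support nothing further. Summed CPM was 185 and 35.5 in the ectoderm-like libraries, 119 and 47.4 in the XEN-like libraries and 14 and 15.7 in mESCs, so neither sorted group overlapped the mESCs. The replicates were far apart, by 5.19-fold (3.89 to 7.04) for ectoderm-like and 2.51-fold (1.85 to 3.45) for XEN-like cells. The first ectoderm-like library also had 2.59 times the Nanog of the second and 6 Pdgfra UMIs against 57, and the part of these differences in the result was not tested.

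In ectoderm-like cells 9.82% of all genes tested were called higher than in mESCs (19.1% in either direction), and so were 4 of the 9 members tested, while 0 members were lower. Gm21312 stood at 36 and 6 UMIs against 0 and 2, a log2 fold change of 4.29 ± 1.01 (SE) with an adjusted p of 0.012 by edgeR's quasi-likelihood test. Zscan4c stood at 62 and 5 UMIs against 4 and 3, a log2 fold change of 3.26 ± 0.92 with an edgeR adjusted p of 0.0281. Gm20765 and Gm4340 were called as well, at log2 fold changes of 3.24 and 2.66 with edgeR adjusted p of 0.0432 and 0.0401. Gm21312, Gm20765 and Gm4340 are array genes, in effect 1 transcript, so their calls are close to a single one. The other 5 had log2 fold changes of 1.69 to 2.85 with edgeR adjusted p from 0.0618 to 0.129, and Zscan4f had too few counts to be tested. Without the first ectoderm-like library 0 members were called, without the second 6 were, and leaving out the first or the second mESC library gave 1 call each; DESeq2 called 2.

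In XEN-like cells the called members were 4 of 9, all of the array, beside 12.3% of all genes called higher and 22.8% called in either direction. Gm21312 stood at 25 and 10 UMIs (4.27 ± 1.03, edgeR adjusted p = 0.0115), Gm4340 at 36 and 7 (3.26 ± 0.78, adjusted p = 0.0111) and Gm20765 at 34 and 5 (3.79 ± 0.97, adjusted p = 0.0158). Gm21304 had a log2 fold change of 2.91 with an edgeR adjusted p of 0.0381. Zscan4c had 19 and 5 UMIs, a log2 fold change of 2.02 and an edgeR adjusted p of 0.182, and was not called. Because the 4 array genes are in effect 1 transcript, these 4 calls are close to a single one. Without the first XEN-like library 0 members were called, and 2 and 3 were called without the first or the second mESC library.

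Between XEN-like and ectoderm-like cells edgeR called 12.7% of all genes and 0 of the 9 members, 0 members had an unadjusted p under 0.05, and DESeq2 also called 0. The identity of the sorted cells was plain from their own markers, with 11 of 11 XEN genes such as Sparc and Col4a1 higher (6.98% of all genes were) and 11 of 11 ectoderm genes tested lower in XEN-like than in ectoderm-like cells. After culture, for which there was 1 library each, the members were at 13.4 CPM in ectoderm-like cells and 21.4 CPM in XEN-like cells, and the counting intervals (8.66 to 19.8 and 14.5 to 30.4 CPM) overlapped those of both mESC libraries.

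The genes whose bulk pattern was most like that of the summed members were largely copies and known partners. Over 25 libraries and 12022 genes with at least 50 UMIs, Pearson's r of log2(CPM + 1) was highest for Gm8764 (0.990), Gm21293 (0.989), AF067061 (0.986), Zscan4a (0.984), Gm7102 (0.984), Zscan4b (0.982), Tcstv1 (0.981), Dcdc2c (0.980), 1700030L20Rik (0.978) and Gm6763 (0.977). The libraries include time neighbours and fractions of the same cultures and are not independent, so no p is given. A wider list of 72 other 2-cell-like genes, of which 63 were in the tables, had a summed CPM of 319 and 239 in mESCs, 666 at 48 h and 123 at 96 h, and of 2815 in Q1, 1183 in Q4, 2800 in T1 and 419 in T3. In mESCs most of that sum came from 4 genes, Zfp600, Calcoco2, Trim43b and Pramel4, which had 291 and 214 CPM there, 182 CPM at 48 h and 70.7 CPM at 96 h. The other 59 genes, a split made after the values were seen, had 28.4 and 24.8 CPM in mESCs, 485 CPM at 48 h (17-fold above the first mESC library, 13.3 to 22.2) and 52.3 CPM at 96 h (1.84-fold, 1.33 to 2.55).

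In single cells a rise and a fall were seen as well, at other hours than in bulk, and most of the UMIs from 36 h to 72 h lay in few cells. Of 3456 SCRB-seq wells 2448 had more than 2000 UMIs and were kept as cells, 137 to 335 per time with a median of 3560 to 5069 UMIs. All 9 plates use the same 384 well names, so well names do not identify cells across times, and no doublet caller was run. Per 10000 UMIs of all kept cells, the members had 0.350 at 0 h, 0.467 at 6 h, 0.501 at 12 h and 1.33 at 24 h. The rate was 11.8 at 36 h, 18.1 at 48 h, 28.5 at 60 h, 28.2 at 72 h and 0.605 at 96 h. From 24 h to 36 h it differed by 8.93-fold (7.74 to 10.3), and from 72 h to 96 h by 46.5-fold (34.6 to 64.1) in the other direction.

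The Zscan4 genes had 0 UMIs among the 1884093 UMIs of mESCs, which allows at most 0.0159 per 10000, and 0 at 6, 12 and 96 h. They had 0.215 per 10000 UMIs at 24 h, 2.05 at 36 h, 2.66 at 48 h, 4.81 at 60 h and 2.31 at 72 h. The array was at 5.04, 7.24, 9.34 and 8.07 from 36 h to 72 h. Gm20767 was at 2.59, 4.23, 6.78 and 8.53 over the same hours, AA792892 at 0.868, 1.69, 3.10 and 3.98, and B020004J07Rik at 1.29, 2.24, 4.49 and 5.26. The rates of Gm20767, AA792892 and B020004J07Rik were highest at 72 h, which rested on a single cell with 1556 of the 3685 member UMIs of that time. Without that cell the 72 h rates were 1.88 for the Zscan4 genes, 6.85 for the array, 4.04 for Gm20767, 1.51 for AA792892 and 2.21 for B020004J07Rik, each below its 60 h value, and 16.5 for all members.

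A pair of thresholds was used to say that a cell carried the transcripts. With at least 5 member UMIs, 246 cells counted: 0 of 282 at 0 h, which allows a share of up to 1.06%, then 2, 4 and 8 cells at 6, 12 and 24 h. The share was 14.4% at 36 h, 22.7% at 48 h, 28.2% at 60 h (22.9 to 33.9, exact binomial interval) and 18.7% at 72 h. At 96 h 0 of 137 cells counted, which allows up to 2.19%. This threshold depends on depth, since these 246 cells had a median of 7405 UMIs against 3998 in the others. With every cell thinned to 2000 UMIs the shares were 3.89%, 7.58%, 10.6% and 5.96% from 36 h to 72 h and 0 at 0 h and 96 h.

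The second threshold, members at 1% of the UMIs of a cell or more, was chosen after the data were seen and does not favour deep cells. It picked out 35 cells: 1 of 290 at 24 h, 7 of 334 at 36 h, 11 of 277 at 48 h, 12 of 273 at 60 h and 4 of 235 at 72 h, and 0 at every other time. The shares were 0.345%, 2.10%, 3.97%, 4.4% (2.29 to 7.55) and 1.70% (0.466 to 4.30), and neighbouring times from 36 h to 72 h had overlapping intervals. Between 0.3% and 1% lay a further 2 cells at 24 h, 5 at 36 h, 5 at 48 h, 3 at 60 h and 4 at 72 h, so the cells just inside the threshold, at 1.04% and 1.14%, border on others just outside it.

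**Figure D2:**
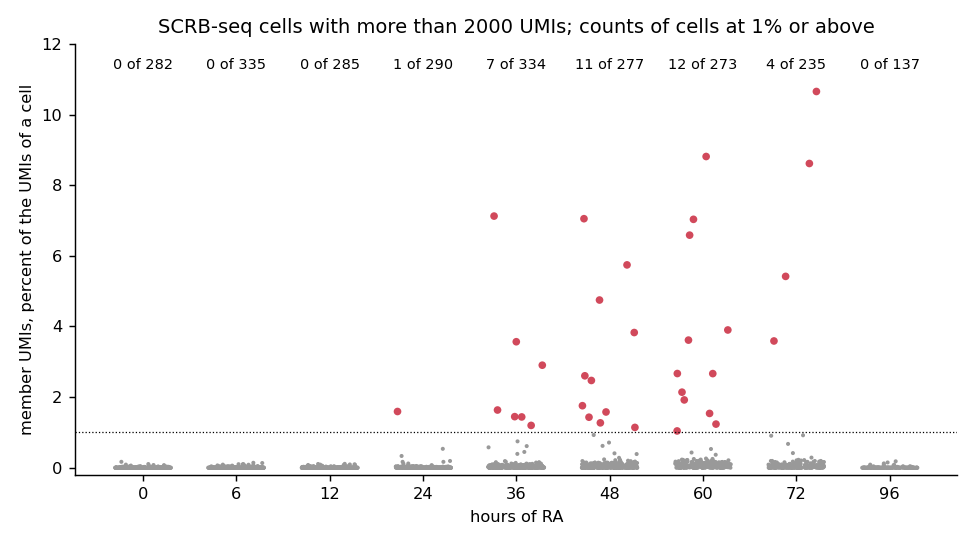
Member UMIs as a percent of all UMIs in each of the 2448 SCRB-seq cells, by hours of RA, with sideways scatter for display and a dotted line at 1%. Red points are the 35 cells at or above the line, of which none lie at 0, 6, 12 or 96 h and the highest reached 10.7% at 72 h.

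These 35 cells held most of the members' RNA. They took 57.8% of all member UMIs at 36 h, 64.6% at 48 h, 73.8% at 60 h and 73% at 72 h. The remainder was thin and widespread: a member UMI was seen in 15.2% of cells at 0 h, 66.5% at 36 h, 83.9% at 60 h and 14.6% at 96 h, or 7.80%, 44.6%, 62.6% and 8.03% after thinning to 2000 UMIs. Cells under 1% had 5.10, 6.62, 7.96 and 7.80 member UMIs per 10000 from 36 h to 72 h. Wells at or below 2000 UMIs, without 7 that themselves passed 1%, had 5.22, 7.80, 9.57 and 7.31, and the origin of this thin remainder was not tested. The share of cells with a member UMI at these times is therefore not read as a share of cells expressing the genes.

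Most of the 35 cells had UMIs of every family. Of them, 31 had a UMI of all 10 members and 34 had at least 8, and each member was found in 33 to 35 of them. Member UMIs per cell ran from 26 to 1556 with a median of 123, and the member share from 1.04% to 10.7% with a median of 2.67%. Depth did not set these cells apart, with a median of 4712 UMIs and 1464 genes detected against 4180 UMIs and 1520 genes in the others. The 1% threshold sums all members, near-identical copies share their reads, and joint presence was among the values the members were chosen by, so these counts are a description only.

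The make-up of the member RNA differed greatly from cell to cell. The Zscan4 genes gave 1.23% to 76.6% of the member UMIs of a cell (median 16.1%), the array 0% to 69% (median 31%) and Gm20767 6.12% to 43.9% (median 22.9%). The range was 2.56% to 21% for AA792892 and 5.13% to 30% for B020004J07Rik. In the cell with most member UMIs, at 72 h, 1556 of 18060 UMIs were from members, with 595 of Gm20767, 403 of B020004J07Rik, 326 of AA792892, 172 of the array and 60 of the Zscan4 genes. Another 72 h cell with 620 of 5819 UMIs had 428 from the array and 29 from the Zscan4 genes.

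A pair of cells marks the ends of this range. A 48 h cell with 325 member UMIs had 164 from the array and 4 from the Zscan4 genes. A 36 h cell with 77 member UMIs had 59 from the Zscan4 genes (Zscan4c 30, Zscan4d 13 and Zscan4f 16), 9 from Gm20767, 4 from AA792892, 5 from B020004J07Rik and 0 from all 4 array genes. Within a cell, the array genes stayed close to each other, with a variance of their UMIs over the mean of 0.303 (median of 23 cells), below the value of 1 that independent sampling of equal copies gives; the ratio was 1.04 for the Zscan4 genes (19 cells) and 4.4 for Gm20767, AA792892 and B020004J07Rik (32 cells). Repeat counting of a molecule in several array genes was not tested. With the array and the Zscan4 genes each counted once, 1, 4, 7, 9 and 4 cells passed 1% from 24 h to 72 h.

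**Figure D3:**
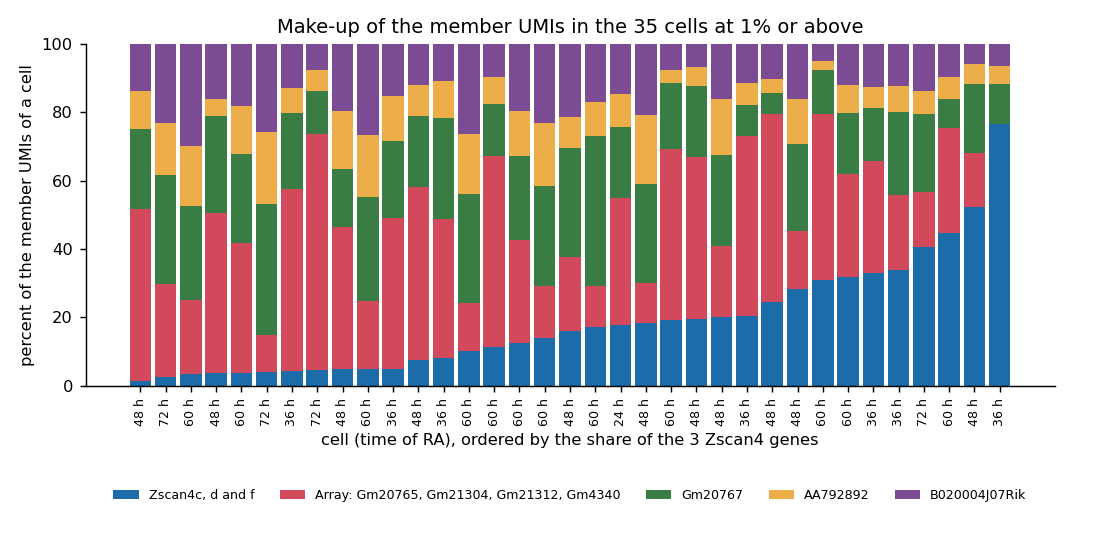
Make-up of the member UMIs in the 35 SCRB-seq cells at 1% or above, as stacked percents per cell, 1 bar per cell labelled by hours of RA and ordered by the share of the Zscan4 genes. The Zscan4 share runs from 1.23% on the left to 76.6% on the right, where the array is at 0.

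Other genes of the 2-cell-like programme were high in the same cells. For each gene the UMIs in the 35 cells were divided by the number expected from the other cells of the same times, and genes with at least 10 UMIs observed and expected together were counted; these ratios come from 5 plates, 1 for each time from 24 h to 72 h, and carry no test. Of 38 genes counted on the list of other 2-cell-like genes, 36 were at 2 or more, against 8.48% of 5233 genes in all. The 63 listed genes with values, counted or not, together had 6101 UMIs against 329 expected (18.6-fold, 18.1 to 19). The median counted gene was at 29.6-fold against 0.541-fold over all genes. Leaving out genes that share sequence with the members, 31 of 33 were at 2 or more. The list also holds families such as the Eif1a-like and Usp17l genes, and sequence shared among listed genes was not checked. Counts of genes on this list, here and below, may therefore include several copies of 1 transcript. A listed gene with few UMIs expected could reach the minimum of 10 only by being high in the selected cells. Such counts are therefore partly set by the rule and are descriptions only.

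The named partners ranged widely. Zscan4a, next to the members on chromosome 7, had 429 UMIs against 10.5 UMIs expected (40.9-fold) and Tcstv1, a 2-cell-specific transcript, 300 against 3.92 (76.5-fold). Gm2022 and Gm5039, Eif1a-like genes, were at 26.5-fold and 31.7-fold, the deubiquitinase gene Usp17la at 12.7-fold, the zinc finger gene Zfp352 at 12.6-fold, Tmem92 at 33.6-fold and Arg2, an arginase, at 8.48-fold. Calcoco2 (1.04) and Zfp600 (0.80) were the 2 listed genes under 2-fold, and Pramel4 (2.14) and Trim43b (2.66) were just above.

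In these cells the members took 3.94% of the UMIs, against 0.0696% expected. A further 91 genes at 10-fold or more took 11.7%, against 0.283% expected, and 32 of those were on the list. The largest shares were those of Gm7102 (2.08% against 0.0560% expected), Dcdc2c (2.02% against 0.0560%) and 2310039L15Rik (1.96% against 0.0442%), which were not on it. Of all genes counted 44.3% were at 0.5 or less, with the median gene at 0.541, and what lowered it was not tested; the lists below are read beside that value.

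Of 5 activators of the state counted, 3 were at 2 or more, with a median of 2.07 beside 0.541 over all genes. Nelfa, a subunit of the negative elongation factor, had 130 UMIs against 20.3 (6.42-fold), Dppa2 47 against 22.7 (2.07-fold) and Dppa4 5 against 9.4 (0.53). Dux had 0 UMIs in the 35 cells. Among 23 repressors counted, 1 was at 2 or more, Zfp809 (3.21), a zinc finger protein that recruits silencing to retroviruses, 10 were at 0.5 or less, and the median of 0.584 was near that of all genes. The chromatin regulators Hdac2 (0.18), Smchd1 (0.35), Morc3 (0.26) and the RNA-binding protein Lin28a (0.28) were among the low ones.

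Of 6 pluripotency genes counted, 1 was at 2 or more and 1 at 0.5 or less, with a median of 0.869. Nanog had 332 UMIs against 146 (2.27-fold) and Dppa5a, another gene of naive cells, 296 against 307 (0.96), whereas Sox2 had 9 against 34.7 (0.26). Ectoderm genes were lowest, with 8 of 11 at 0.5 or less and a median of 0.208, among them Prtg (27 against 152), Cd24a (7 against 33.6), Meis1 (3 against 16.8) and Sox1 (2 against 15.1). XEN genes had a median of 0.477, with Sparc at 23 against 76.4 and Gata6 at 0 against 12.2. Genes of RA response (0.514), S phase (0.496) and G2/M (0.542) had medians close to that of all genes, although Cenpf, a kinetochore protein gene, stood at 1.69.

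**Figure D4:**
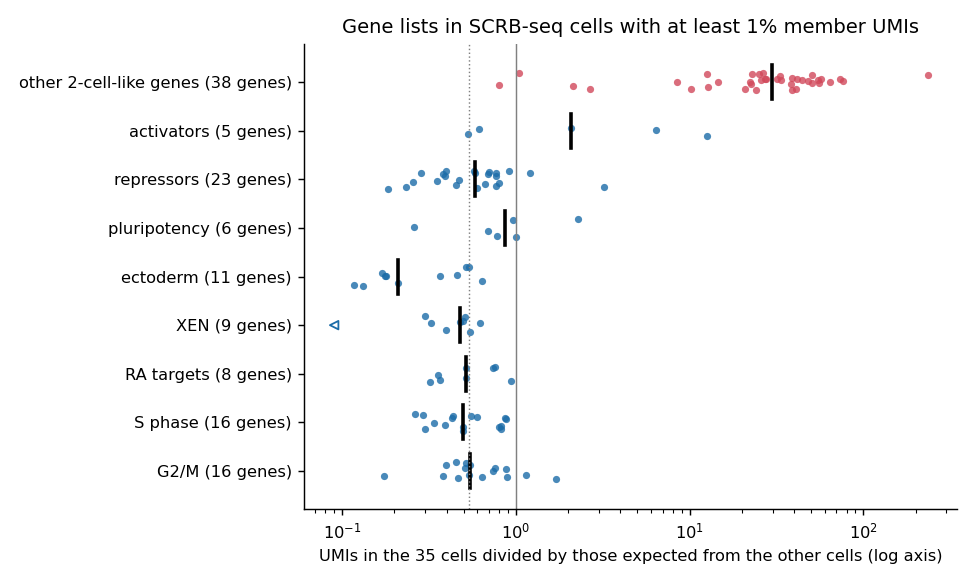
Ratio of observed to expected UMIs in the 35 cells for each gene of 9 lists on a log axis, 1 point per gene with at least 10 UMIs observed and expected together, with scatter across the line for display. Black bars are list medians, the dotted line the median of all 5233 genes (0.541), the solid line 1, and the open triangle a gene at 0; the other 2-cell-like genes centre on 29.6 and ectoderm genes on 0.208.

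With the looser threshold of 5 member UMIs the other 2-cell-like genes were also higher, at lower ratios. In those 246 cells 34 of 41 other 2-cell-like genes counted were at 2 or more, against 5.11% of 12807 genes. The sum of all 63 listed genes with values was at 3.03-fold (2.97 to 3.08). The median gene ratio was 1.08 for ectoderm genes, 1.12 for XEN genes, 1.17 for repressors (0 of 27 at 0.5 or less) and 1.14 for S-phase genes, beside 1.12 over all genes, so the low ratios of these lists in the 35 cells were not seen in the 246. The genes with the highest ratios were BC080695 (29 UMIs), Inhbe (24), Gm7978 (14), Cryaa (13) and 4930442L01Rik (10), all with 0 UMIs in the other cells of those times, then Gm4301 and Gm4312 (16 and 13 UMIs against 0.023 expected for each), Atf7 (43-fold), Gm10865 (32.7-fold) and Gm21221 (32.6-fold). The lowest were Scml4 (0.276), Stab1 (0.277) and Ccdc78 (0.371), then Cpne9, 9530052E02Rik, 3110070M22Rik, Gm6531, 4921517D22Rik, Adarb1 and Tomm6 between 0.40 and 0.43. Pooled UMIs give deep cells more weight. Without cells over 30000 UMIs, 219 of the 246 were left, and the other 2-cell-like genes summed to 4.07-fold (3.98 to 4.15). Median gene ratios were then 1.08 for ectoderm genes, 1.18 for XEN genes and 1.11 for repressors, beside 1.07 over all genes. The 12 abundant transcripts named above took a median of 9.73% of UMIs in the 1% cells at 36 h against 9.48% in the other cells. The medians were 11.9% against 8.66% at 48 h, 9.68% against 6.26% at 60 h and 9.26% against 5.10% at 72 h. The part of these transcripts in the gene ratios was not tested.

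SMART-seq2, made from other cells with another method, gave reads per kilobase of transcript and 1000000 mapped reads (RPKM), scaled here to 1 total per cell, for 82 mESCs and for 86, 89 and 82 cells after 12, 24 and 48 h of RA. A summed member value above 5 was found in 18.3%, 9.30%, 23.6% and 53.7% of them. Above 500, a threshold chosen after the values were seen, there were 0 cells at 0 h (a limit of 3.66%), 0 at 12 h (3.49%), 2 at 24 h (2.25%) and 10 at 48 h (12.2%, 6.01 to 21.3). The highest cell reached 118 at 0 h, 109 at 12 h, 4956 at 24 h and 9819 at 48 h, and the cells above 500 held 91.4% and 93.7% of the summed values at 24 h and 48 h.

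All 12 cells above 500 were above 5 for Zscan4c (median 416), Zscan4d (1379), Zscan4f (388), Gm20767 (1163), AA792892 (56.9) and B020004J07Rik (306). The array genes were listed at 0 in 10 of these cells; 1 had 95.3 for Gm4340 and another had 0.175 for Gm21312 and 0.0283 for Gm4340, although the same genes had UMIs in SCRB-seq, and what the quantification did with near-identical copies was not tested. At 0 h the highest cell had 79.1 for Zscan4d, 21.9 for Zscan4f and 16.9 for Zscan4c, and 0 for the other members. At 12 h Zscan4c, Zscan4d and Zscan4f were listed at 0 in every cell.

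**Figure D5:**
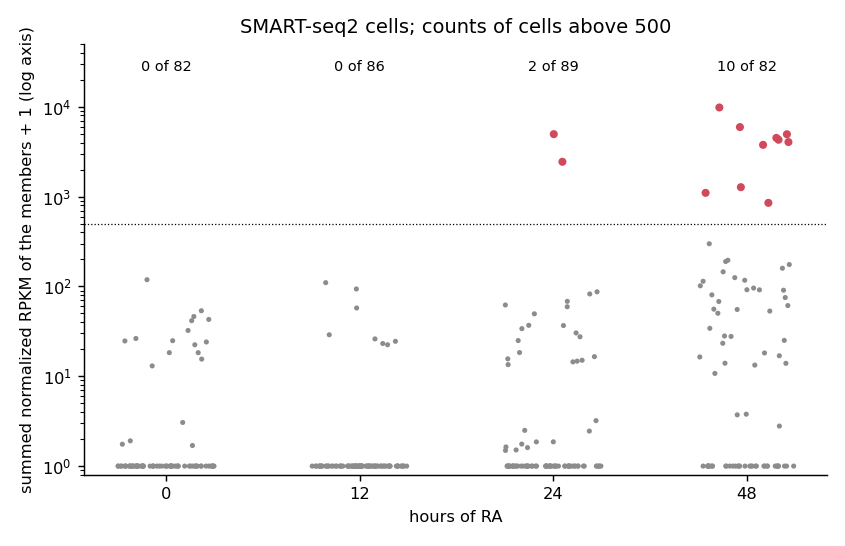
Summed normalized RPKM of the members plus 1 in each SMART-seq2 cell, on a log axis, by hours of RA, with sideways scatter for display and a dotted line at 500. Red points are the 2 cells at 24 h and 10 at 48 h above the line, reaching 9819, whereas the highest cells at 0 h and 12 h stand at 118 and 109.

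In the 12 cells above 500, compared with the other 159 cells of 24 h and 48 h, 45 of 47 other 2-cell-like genes were higher by at least 1 on the log2(RPKM + 1) scale, against 9.86% of 8652 genes, with a median difference of 5.58 against -0.95 for all genes. A gene rarely found in the other cells was compared only if enough of the 12 cells had it above 5. Tcstv1, for example, was above 5 in all 12 and in 7 of the 159 others. The count of 45 is therefore partly set by this rule and is a description only. Dux, which SCRB-seq did not detect, had a mean of 72.5 against 5.00 and was above 5 in 9 of the 12 cells. Zfp352 had 1041 against 0.70, Nelfa 2059 against 72.3, Dppa2 1159 against 132, and Dppa4 106 against 139. Gm4971 (1810 against 0.27) and Gm8994 (4800 against 17.5) showed the largest differences on the log2 scale.

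The other lists matched in direction those of SCRB-seq in part. Zfp809 was again the repressor at the high end (834 against 55.8) and 13 of 27 repressors were lower by at least 1, as were 48.6% of all genes, ectoderm genes had a median difference of -1.34 with Prtg at 47 against 239 and Meis1 at 5.82 against 83.2, and Nanog was at 62.9 against 52.3. Genes of RA response had the lower median, -2.03, with 5 of 8 lower by at least 1, whereas in SCRB-seq they lay close to the median of all genes. Of S-phase genes 9 of 16 were lower by at least 1. These cells had fewer genes above 5, with medians of 4114 against 7376 at 24 h and 5250 against 7430 at 48 h, and the part of that difference in the lower values of other genes was not tested.

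With the threshold of 5, 88 cells counted, and 25 of 50 other 2-cell-like genes were higher by at least 1 against 0.384% of 15119 genes. The rule for comparing a gene was the same, so this count is likewise a description. The largest differences were those of Gm2022 (1.92), Gm5039 (1.87), Gm8300 (1.86), Zscan4a (1.81), Gm12794 (1.78), Acn9 (1.75), Arg2 (1.58), Lgals6 (1.51), AF067061 (1.49) and Gm13119 (1.48). The lowest were Tmem205 (-1.34), 2410004N09Rik (-1.33), Vps72 (-1.29), Pcolce (-1.26), Magi1 (-1.22), Mest (-1.19), Tbrg3 (-1.17), Itm2c (-1.14), Gps2 (-1.11) and Crabp2 (-1.09). Of these 10 higher genes, 8 are on the list of 2-cell-like genes, Acn9 and Lgals6 being the exceptions.

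By 96 h no cell rich in the transcripts was detected at this depth. No SCRB-seq cell had 5 member UMIs, 0 of 137 passed 1%, and the highest had 4. At this time 247 of 384 wells were at or below 2000 UMIs, the most of any time. By the 1% rule 0 of 137 allows up to 2.19%, above the 1.70% found at 72 h, so that rule alone shows no loss. The member rate of 0.605 per 10000 UMIs was 1.73 times that of mESCs (1.15 to 2.57), and it was made up of 18 UMIs of Gm20767, 12 of AA792892, 10 of B020004J07Rik and 4 of the array, all 4 in 1 cell. AA792892 was 3.11-fold above mESCs (1.23 to 8.04), and B020004J07Rik differed by 1.13-fold (0.479 to 2.46). The 63 other 2-cell-like genes were at 2.68 UMIs per 10000 against 10.7 at 0 h and 25.1 at 36 h, but Zfp600, Calcoco2, Trim43b and Pramel4 made up 2.19 and 10.0 of the values at 96 h and 0 h. The remaining 59 genes were at 0.495 at 96 h, 0.722 at 0 h and 13.4 at 36 h, so that the 96 h to 0 h ratio of 0.25 for the whole list was 0.686 (0.461 to 0.997) without the 4 genes. In bulk the same 59 genes were higher at 96 h than in the first mESC library, as given above.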

How the data were processed

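The members, the gene lists and the thresholds were chosen with earlier results of these data known. Per the methods of the study, the authors used BWA 0.7.4 and the RefSeq transcripts of mm10 for bulk and SCRB-seq reads and deposited raw UMI counts per gene and library or well, without normalization; cells of 1 plate share a library, and reads of near-identical copies could be divided among them. SMART-seq2 cells above a read minimum were processed by the authors with TopHat, Cuffquant and Cuffnorm and deposited as RPKM values; the read counts behind them are unknown. Of these values 0.127% to 0.140% carry a decimal comma and were set to 0 (read as decimals in an alternative), and every cell was scaled to the median total of 0 h cells.

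Bulk counts of mESC, sorted ectoderm-like and sorted XEN-like libraries (2 each) were tested with edgeR 4.0.16 (R 4.3.3; filterByExpr, TMM, glmQLFit and glmQLFTest, Benjamini-Hochberg FDR 0.05), after a check on simulated data. DESeq2 1.42.0, no filter, a replicate block and leaving out each library were the alternatives. Other conditions have 1 library, plate or set of cells and got no test: exact Poisson, Clopper-Pearson and conditional binomial 95% intervals cover counting error only (Python 3.11.15, scipy 1.17.1). A count of 0 was taken to allow 3. For UMI ratios in high cells, each gene's expected UMIs were summed over times from the other kept cells, leaving member UMIs out of totals. RPKM differences used log2(RPKM + 1). Wells needed more than 2000 UMIs. Genes were named by rule: all members; listed 2-cell-like genes with 5 UMIs or more; the 10 highest and 10 lowest genes in cells with 5 member UMIs or RPKM above 5; and the 10 genes most like the members in bulk. Thresholds of 1% and 500 and the 12 abundant genes came after the values were seen. Gkn2 and Rn45s, which hold damaged values, and 2 repeated names were left out. The files pair no sequences with genes; positions and promoters are RefSeq's.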

Additional observations from a re-analysis of the deposited data

Results flagged for a closer look

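Wells at or below 2000 UMIs, which entered no share of cells, held member UMIs above the level of the untreated mESC plate. Their rate per 10000 UMIs was 10.0 at 36 h, 16.4 at 48 h, 14.8 at 60 h and 7.31 at 72 h, against 0.737 in such wells at 0 h. Of the 1008 wells, 7 had at least 5 member UMIs and 1% of their UMIs or more, 1 at 36 h, 4 at 48 h and 2 at 60 h, with up to 63 member UMIs in 1 well. Without these the rates were 5.22, 7.80, 9.57 and 7.31. The origin of this RNA was not tested.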

How the results depend on the processing

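Over all genes, DESeq2 called 1111 in ectoderm-like cells against mESCs (edgeR 1707) and 717 between XEN-like and ectoderm-like cells (edgeR 1135); leaving out 1 library gave 862 to 1349, 1265 to 1664 for XEN-like cells against mESCs, and 262 to 657. For the members, ectoderm-like cells against mESCs gave 4 calls in the main analysis, 8 without a low-count filter, 2 by DESeq2 and 0 to 6 without 1 library; XEN-like cells gave 4, then 7 without the filter and 0 to 4 without 1 library. Zscan4d in XEN-like cells, never called, was at -3.89 (log2) without the first XEN-like library and at 2.41 without the second; with 1 library left, the lone sample is assumed to vary like the other groups. With a replicate block the ectoderm-like comparison had 7 member calls, but replicate numbers were not shown to pair the samples (correlations of 0.103, 0.0266 and 0.351 over 8057 genes). The share with 5 member UMIs at 60 h, 28.2%, was 22% with copies counted once and 10.6% after thinning, and at 0 h 3 UMIs in place of 5 gave 2.84%. The 60 h to 0 h ratio of 81.4 was 60.0 without the top cell, 22.7 without the cells above 1%, 47.9 as a mean of cell shares and 57.4 with copies counted once; the bulk 48 h ratio of 30.9 was 21.3 with copies counted once. Without the 4 listed genes most abundant in mESCs, the summed level of the other 2-cell-like genes was 17 times that of mESCs at 48 h in bulk (2.09 with them), 1.84 times at 96 h (0.385 with them, the opposite direction) and 0.686 times at 96 h in SCRB-seq (0.25 with them). At an RPKM threshold of 5 the count of other 2-cell-like genes was 25 in place of 45. No value could be had for mESCs alone in the comparison of high cells, as none passed 5 UMIs. Depth limits the mESC and 96 h values, which rest on few UMIs.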
